A study of Homo sapiens with 8 samples.

Results

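The caveolar machinery was described in TeloHAEC, a human aortic endothelial cell line immortalised with telomerase, by the transcripts of 7 genes: CAV1, CAV2, CAVIN1, CAVIN2, CAVIN3, EHD2 and PACSIN2. The genes were chosen by symbol, and all 7 had a row among the 34415 genes of the deposited table and passed the filter that left 10720 genes for testing. The cells were wild type by their labels and were grown with palmitic acid (PA), a saturated fatty acid, to imitate vessel conditions that favour atherosclerosis. The 4 control libraries had palmitic acid alone, and the 4 estradiol libraries had palmitic acid and estradiol, the main estrogen. The titles state this grouping, while the treatment tag of the estradiol libraries reads PA-supplied and that of the others Control. The labels state neither dose nor exposure time. Nothing in the labels says that replicates were separate cultures. The p-values therefore describe library-to-library spread, part or all of which may be technical.

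Caveolae are small flask-shaped pits of the plasma membrane and are especially abundant in endothelial cells, where they carry lipoproteins and albumin across the cell, buffer membrane tension and hold signalling proteins such as endothelial nitric oxide synthase. Caveolins insert into the inner leaflet of the membrane as oligomers, and cavins assemble on them as a peripheral coat. EHD2, an ATPase, sits at the neck of the pit and restrains it at the surface, and PACSIN2, an F-BAR protein, helps to bend the membrane there.

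Levels are given as FPKM, fragments per kilobase of transcript scaled to each library's total of assigned fragments, so that genes can be compared per length. In FPKM, averaged over the 8 libraries, CAVIN3 stood at 152.9, CAVIN1 at 128, CAV1 at 106, EHD2 at 54.0, CAV2 at 30.1, PACSIN2 at 24.4 and CAVIN2 at 11.4. CAVIN3, CAVIN1 and CAV1 lay at percentiles 97.0, 96.3 and 95.3 of the mean levels of all genes tested, and CAVIN2 at 58.3. The order of neighbours was not equally firm. CAVIN3 exceeded CAVIN1 in 8 of 8 libraries, although their ranges overlapped, and CAV2 exceeded PACSIN2 in 8 of 8, by a ratio as low as 1.02. CAVIN1 exceeded CAV1 in 6 of 8 libraries and was below it in control replicate 3 and estradiol replicate 4. The ranges of CAV1 and EHD2, of EHD2 and CAV2, and of PACSIN2 and CAVIN2 did not overlap.

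**Figure D1:**
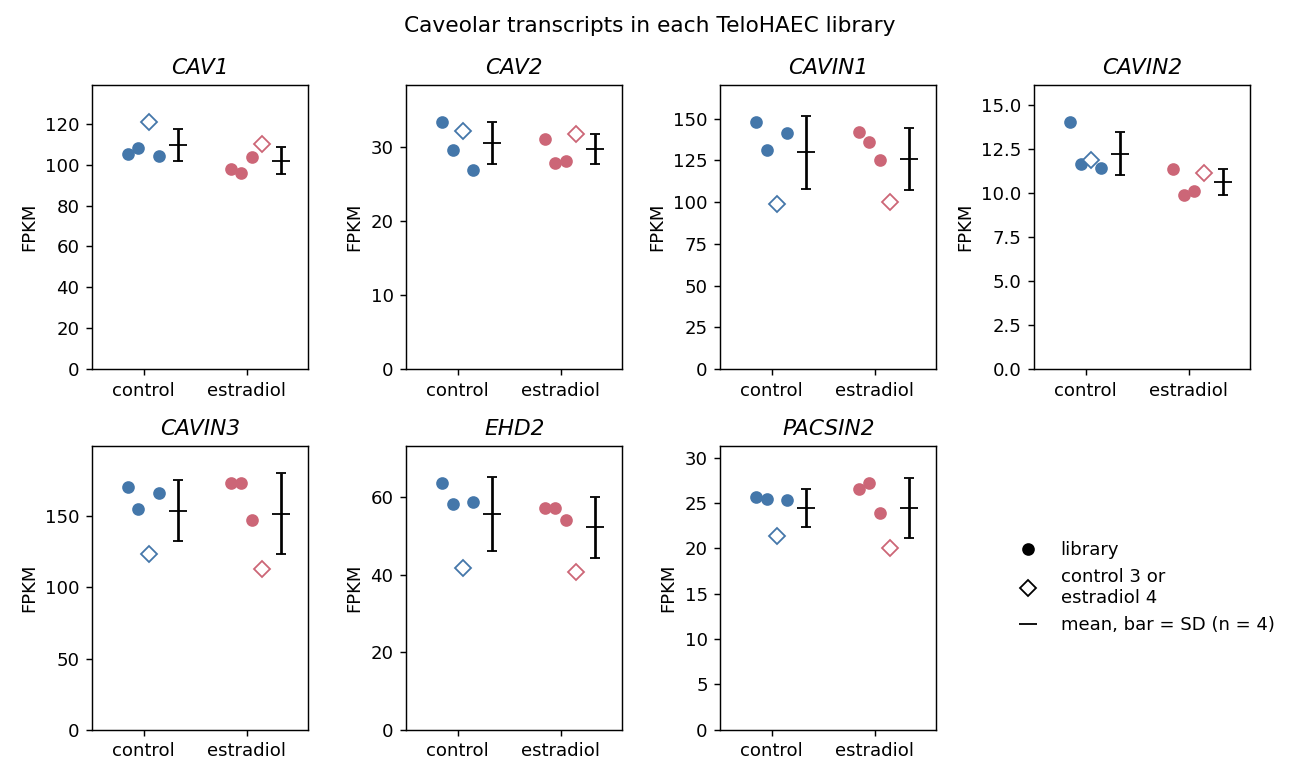
FPKM of the 7 caveolar genes in each library, control in blue and estradiol in red, with the mean and SD of each group (n = 4) in black; open diamonds mark control replicate 3 and estradiol replicate 4. Groups overlap in every panel except CAVIN2, and the open diamonds are the lowest points for CAVIN1, CAVIN3, EHD2 and PACSIN2.

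Several paralogs belong to the same families and were measured beside the members. CAV3, the muscle caveolin, had at most 1 read in a library and CAVIN4, the muscle cavin, stood between 0.74 and 1.2 FPKM, under the filter. PACSIN1, the neuronal form, had at most 2 reads in a library, and PACSIN3 was at 5.54 ± 1.04 FPKM (control) and 5.44 ± 1.09 (estradiol), as mean and SD of 4 libraries. EHD1 and EHD4, which act in endosomal recycling, measured 51.5 ± 10.7 and 49.3 ± 4.92 FPKM, and 26.9 ± 3.56 and 26.9 ± 2.24 (control, then estradiol; SD, n = 4 each). EHD3 stood at 0.525 ± 0.0791 and 0.373 ± 0.146 FPKM, with overlapping groups. EHD1, EHD4 and PACSIN3 were the 3 of 7 paralogs that could be tested, and 0 of them passed (limma log2 fold changes of -0.04, 0.0087 and -0.02, each at adjusted p = 0.999989). The non-muscle set was thus the one detected well, with CAV1, CAV2, CAVIN1, CAVIN2 and CAVIN3 all above 9 FPKM in every library.

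Promoter sequences are shown for the 2 neighbouring caveolin genes, CAV1 and CAV2, and for CAVIN2 and EHD2, a cavin and the neck ATPase; these were chosen after their values were seen, and none passed the test. They come from RefSeq on GRCh38.p14, matched by symbol, from 250 bases before to 50 after the most upstream start, 5′ to 3′ on the gene's strand. CAVIN2 lies at chr2:191847039-191847338 (minus strand), CAV1 at chr7:116524759-116525058 (plus), CAV2 at chr7:116499488-116499787 (plus) and EHD2 at chr19:47713172-47713471 (plus). Capitals mark the GC box GGGCGG on either strand, which SP1 family factors bind.
CAVIN2: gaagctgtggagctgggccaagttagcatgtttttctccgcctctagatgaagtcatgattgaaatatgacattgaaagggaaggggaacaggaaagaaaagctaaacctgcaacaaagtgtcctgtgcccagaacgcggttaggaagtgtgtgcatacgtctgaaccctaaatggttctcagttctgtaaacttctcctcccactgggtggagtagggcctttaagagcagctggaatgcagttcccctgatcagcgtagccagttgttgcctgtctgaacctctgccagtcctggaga
CAV1: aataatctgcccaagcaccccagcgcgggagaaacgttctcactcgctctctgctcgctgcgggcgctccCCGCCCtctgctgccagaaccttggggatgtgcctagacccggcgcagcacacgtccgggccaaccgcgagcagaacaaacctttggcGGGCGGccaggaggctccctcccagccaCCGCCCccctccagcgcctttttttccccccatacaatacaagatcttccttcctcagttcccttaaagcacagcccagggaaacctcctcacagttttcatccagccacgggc
CAV2: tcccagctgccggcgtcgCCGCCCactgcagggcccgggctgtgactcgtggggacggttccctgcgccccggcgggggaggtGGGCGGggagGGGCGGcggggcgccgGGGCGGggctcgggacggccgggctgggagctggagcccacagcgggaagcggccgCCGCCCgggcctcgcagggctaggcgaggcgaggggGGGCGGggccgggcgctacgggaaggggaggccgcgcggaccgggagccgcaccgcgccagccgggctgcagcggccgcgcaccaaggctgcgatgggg
EHD2: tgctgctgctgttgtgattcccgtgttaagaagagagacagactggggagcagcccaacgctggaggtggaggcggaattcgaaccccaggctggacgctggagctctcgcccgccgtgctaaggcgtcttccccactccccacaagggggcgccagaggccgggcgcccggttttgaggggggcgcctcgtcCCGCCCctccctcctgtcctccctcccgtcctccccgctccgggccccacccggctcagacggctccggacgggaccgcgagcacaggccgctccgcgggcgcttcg
The windows hold 0 GC boxes in CAVIN2, 3 in CAV1, 6 in CAV2 and 1 in EHD2, and their GC contents are 49.3%, 62.3%, 82.7% and 71.0%, against a median of 58.7% over 35116 promoters, of which 44.95% hold a GC box. The estrogen response half-site GGTCA was searched on both strands as well and is in none of the 4 windows shown. Over all starts of 5 members (13 windows, with many overlapping for PACSIN2), it is in 6: the most downstream CAV1 start and 5 PACSIN2 starts. It is in 37.4% of all promoters. The full element GGTCANNNTGACC, which contains the half-site, is in 0 of 13 and in 0.057% of all promoters. A match in these letters is a description of the window and not a bound site. CAVIN1 and CAVIN3 had no entry in the promoter table.

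Before the comparison, 2 properties of the libraries need stating. The recovered depth was 33421051 to 39899258 reads per library, and member genes had between 1009 reads (CAVIN2) and 26007 reads (CAVIN1) in a library, so counting error was at most 3.15%. That covers counting error alone, since reads without molecular identifiers are not independent molecules. Control replicate 3 and estradiol replicate 4 stood apart from the other 6 libraries on the first principal component, which held 68.7% of the variance. The labels name no batch. Of 12 endothelial markers 10 reached a mean of 1 FPKM, with CDH5 at 127 FPKM, while VWF and EMCN did not. Adipocyte and fibroblast markers, from other cell types rich in caveolae, reached 1 FPKM in 0 of 6 genes each, with LUM at 0, and summed to at most 0.316 and 0.263 FPKM in a control and 0.173 and 0.253 in an estradiol library. Of 8 smooth muscle markers 3 were tested (ACTA2, TAGLN and SMTN). DES was at 0, and the list summed to 24.1 to 36.5 FPKM in control and 24.0 to 35.6 in estradiol libraries. Of 6 epithelial markers 2 (KRT18 and KRT19) and of 6 macrophage markers 1 (CD68) were tested, with sums of 73.8 to 116 and 33.4 to 45.3 FPKM in control and 75.1 to 101 and 31.1 to 42.8 FPKM in estradiol libraries.

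None of the 7 caveolar genes passed the test between estradiol and control, and neither did any of all 10720 genes (0 genes, 0.0% called at an adjusted p under 0.05). In limma each of the 7 had an adjusted p of 0.999989. Without adjustment, 26 genes (0.243%) had p under 0.05, and no caveolar gene was among them in this fit. Were no gene to differ, a share of about 0.05 of all genes would be expected there, so this fit was conservative. With a term for the 2 libraries that stood apart 351 genes were under 0.05, and in the other 6 libraries alone 416. Neither of those fits called a gene after adjustment. The limma-voom fit to the recovered reads also called 0 genes (23 without adjustment), as did the exact permutation test per gene (57 without adjustment, CAVIN2 among them). Without adjustment CAVIN2 was also under 0.05 with a term for the 2 libraries that stood apart and in the other 6 libraries alone. So it was with the GC trend removed and without the filter, and CAV1 was with that term. Over all genes the counts under 0.05 in these fits were 351 and 416 of 10720, 262 of 10526 and 437 of 23471. Each is below the share of 0.05 expected were no gene to differ. Neither CAVIN2 nor CAV1 passed after adjustment in any of them. The fitted value of all 7 was below 0 with estradiol, against 50.5% of all genes tested, and their median log2 fold change was -0.04, against -0.00047 over all genes. The endothelial markers leaned the same way, with 9 of the 10 tested below 0 and a median of -0.04. Leaving out estradiol replicate 4 turned the sign of 4 of the 7 caveolar genes: without it the log2 fold change was 0.06 for CAVIN1, 0.11 for CAVIN3, 0.03 for EHD2 and 0.08 for PACSIN2. Leaving out control replicate 1 also turned CAV2 (0.0074), CAVIN1 (0.03), CAVIN3 (0.03) and PACSIN2 (0.01). Without control replicate 4 CAVIN1, CAVIN3 and PACSIN2 were at 0.0062, 0.01 and 0.0092, and without control replicate 2 PACSIN2 was at 0.01. In bulk RNA, fewer cells that express a gene and less RNA per cell cannot be told apart.

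**Figure D2:**
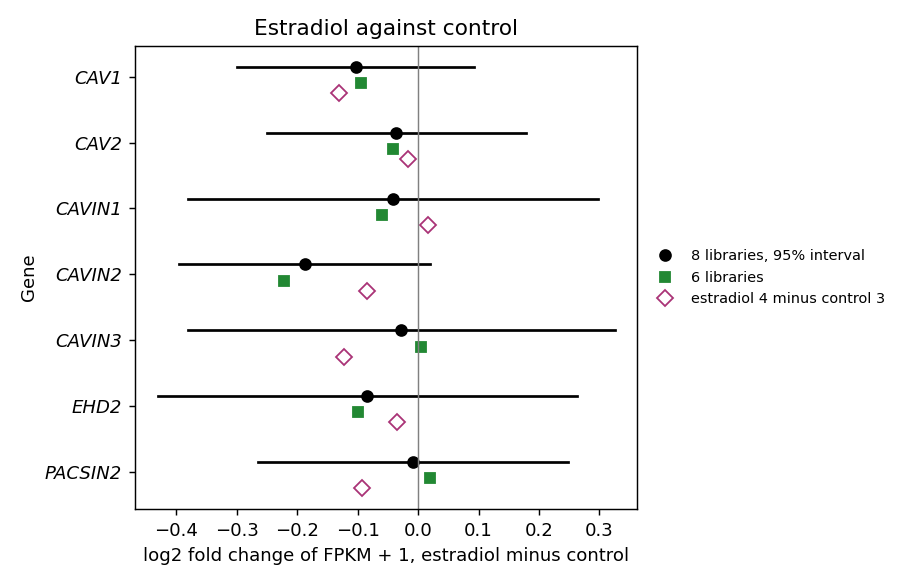
Log2 fold change of FPKM + 1, estradiol minus control, for the 7 caveolar genes. Black circles with bars are the limma estimates over 8 libraries with 95% intervals, green squares the 6 remaining libraries once control replicate 3 and estradiol replicate 4 are left out, and open diamonds the difference within that pair. All 7 intervals include 0, and CAV1, CAV2, CAVIN2 and EHD2 have all 3 symbols below 0.

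CAV1 encodes caveolin-1, the structural protein without which endothelial caveolae do not form. It measured 105, 108, 121 and 104 FPKM in control replicates 1 to 4 and 98.1, 95.9, 104 and 110.3 in estradiol replicates 1 to 4. Control replicate 3 was the highest of the 8 and estradiol replicate 4 the second, so the groups overlapped. The log2 fold change was -0.10 ± 0.09 (SE; 95% interval -0.30 to 0.09; limma adjusted p = 0.999989), or 109.7 ± 7.67 against 102 ± 6.44 FPKM (SD, n = 4 each). In the 6 libraries without the 2 that stood apart, the 3 estradiol values lay below the 3 control values, at 106 ± 2.07 and 99.2 ± 4.00 FPKM (control, then estradiol; SD, n = 3 each). There the log2 fold change was -0.09 ± 0.05 (SE; limma adjusted p = 0.992), and estradiol replicate 4 minus control replicate 3 was -0.13. With a term for those 2 libraries in the fit of all 8, CAV1 stood at -0.10 ± 0.04 (SE), and that fit called 0 genes. Leaving out control replicate 3 alone moved it to -0.06 (limma adjusted p = 0.808).

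CAV2 encodes caveolin-2, which forms mixed oligomers with caveolin-1 and lies next to it in the genome. It measured 33.4, 29.6, 32.1 and 26.9 FPKM in control replicates 1 to 4 and 31.1, 27.9, 28.0 and 31.7 in estradiol replicates 1 to 4. The values of the groups were interleaved, with a control library both highest and lowest. The log2 fold change was -0.04 ± 0.10 (SE; 95% interval -0.25 to 0.18). In GENCODE 29, 76 exonic bases of CAV2 are shared with an antisense gene, and whether the counting used strand is not stated, so a small part of its level is uncertain.

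CAVIN2, a cavin that curves the caveolar membrane, was the member whose groups did not overlap. It measured 14.0, 11.7, 11.9 and 11.4 FPKM in control replicates 1 to 4 and 11.4, 9.88, 10.1 and 11.1 in estradiol replicates 1 to 4. The lowest control library (11.41) was just above the highest estradiol library (11.35), a gap smaller than the counting error. Over all genes tested, 0.224% had every estradiol library below every control library and 0.308% every one above, and CAVIN2 was 1 of 7 members below and 0 of 7 were above. These shares are low by construction. Groups cannot separate where control replicate 3 and estradiol replicate 4 are both below (43.9% of genes, 4 members) or both above (34.6%, 1 member) the others. The shares are therefore no measure of how rare the CAVIN2 pattern is. The log2 fold change was -0.19 ± 0.09 (SE; 95% interval -0.40 to 0.02; limma adjusted p = 0.999989), or 12.3 ± 1.21 against 10.6 ± 0.732 FPKM (SD, n = 4 each). The exact two-sided permutation p was 0.0286, the smallest that 8 libraries can give, and 1.0 after adjustment over all genes. Control replicate 1 was the highest library. Without it the log2 fold change was -0.12, and with only control replicate 3 and estradiol replicate 4 compared it was -0.08. In the other 6 libraries it was -0.22 ± 0.08 (SE; limma adjusted p = 0.992). Its promoter window holds neither a GC box nor an estrogen response half-site. CAVIN2 shares 233 exonic bases with an antisense gene in GENCODE 29.

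CAVIN1, the cavin that every caveolar coat needs, measured 148, 131, 99.0 and 142 FPKM in control replicates 1 to 4 and 142, 136, 126 and 100.1 in estradiol replicates 1 to 4. Each group had 1 library near 100 FPKM (98.96 and 100.1) and 3 above 125 FPKM, and the groups overlapped almost wholly. The log2 fold change was -0.04 ± 0.15 (SE; 95% interval -0.38 to 0.30). CAVIN3, a cavin that also binds signalling proteins, measured 171, 155, 123 and 167 FPKM in control replicates 1 to 4 and 174, 174, 147 and 113 in estradiol replicates 1 to 4. The lowest library of each group was again control replicate 3 and estradiol replicate 4. Its log2 fold change was -0.03 ± 0.16 (SE; 95% interval -0.38 to 0.33). In the annotation, 557 exonic bases of CAVIN3, whose length recovered from the FPKM steps is 1028 bases, are shared with a transcript of the opposite strand, and whether reads were counted by strand is not given in the sources used here.

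EHD2 measured 63.8, 58.3, 41.8 and 58.9 FPKM in control replicates 1 to 4 and 57.1, 57.3, 54.1 and 40.7 in estradiol replicates 1 to 4. The log2 fold change over 8 libraries was -0.08 ± 0.16 (SE; 95% interval -0.43 to 0.26). In the 6 libraries the 3 estradiol values lay below the 3 control values, at 60.3 ± 3.03 and 56.2 ± 1.81 FPKM (control, then estradiol; SD, n = 3 each; limma log2 fold change -0.10 ± 0.05 SE, adjusted p = 0.992), and the pair differed by -0.04. CAV1, CAVIN2 and EHD2 were thus 3 of 7 members lower without overlap in the 6 libraries, as were 4.93% of all genes, and lower within the pair as well, as were 1.93% of all genes. PACSIN2 measured 25.7, 25.4, 21.4 and 25.3 FPKM in control replicates 1 to 4 and 26.5, 27.2, 23.9 and 19.98 in estradiol replicates 1 to 4. The estradiol libraries held both its highest and its lowest value, and the log2 fold change was -0.0087 ± 0.11 (SE; 95% interval -0.27 to 0.25). PACSIN2 shares 155 exonic bases on the same strand with ARFGAP3, a gene at 66.7 FPKM, and how the counting treated shared bases is not stated.

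The intervals bound what the main fit, without a term for the 2 libraries that stood apart, could have missed given the spread between these libraries. The labels do not say that replicates were separate cultures, so spread between cultures may be missing from these intervals. For CAV1 the 95% interval of the fold of FPKM + 1 ran from 0.813 to 1.07, for CAV2 from 0.841 to 1.13, and for CAVIN2 from 0.760 to 1.01. For CAVIN1, CAVIN3 and EHD2, which varied most, it ran from 0.768 to 1.23, from 0.768 to 1.253 and from 0.742 to 1.20. A 1.5-fold difference in either direction thus lay outside the interval of all 7 genes. Differences of the size fitted here were not detectable at the spread of this fit, which includes the 2 libraries that stood apart. With a term for those 2 the SE of the log2 fold change went from 0.16 to 0.04 for EHD2. It went from 0.09 to 0.04 for CAV1 and from 0.09 to 0.07 for CAVIN2, and 0 genes passed after adjustment.

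The largest differences of the caveolar genes other than CAVIN2 were between libraries and did not follow estradiol. For CAVIN2, whose groups did not overlap, the control libraries alone ran from 11.41 to 14.04 FPKM, beside group means of 12.25 (control) and 10.62 (estradiol). In control replicate 3 and estradiol replicate 4, CAVIN1, CAVIN3, EHD2 and PACSIN2 were lower than in any of the other 6 libraries, while CAV1 was higher than in any of them. The mean of the pair minus that of the 6, on the log2(FPKM + 1) scale, was -0.46 for CAVIN1, -0.47 for CAVIN3, -0.49 for EHD2 and -0.30 for PACSIN2. It was 0.17 for CAV1, 0.11 for CAV2 and 0.02 for CAVIN2. In FPKM, CAVIN1 averaged 99.5 in the pair and 137 in the 6, EHD2 41.2 and 58.3, and CAV1 116 and 103. This is a description of 2 libraries picked for standing apart, with no test, and 43.9% of all genes tested were below, and 34.6% above, the other 6 in the same way.

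**Figure D3:**
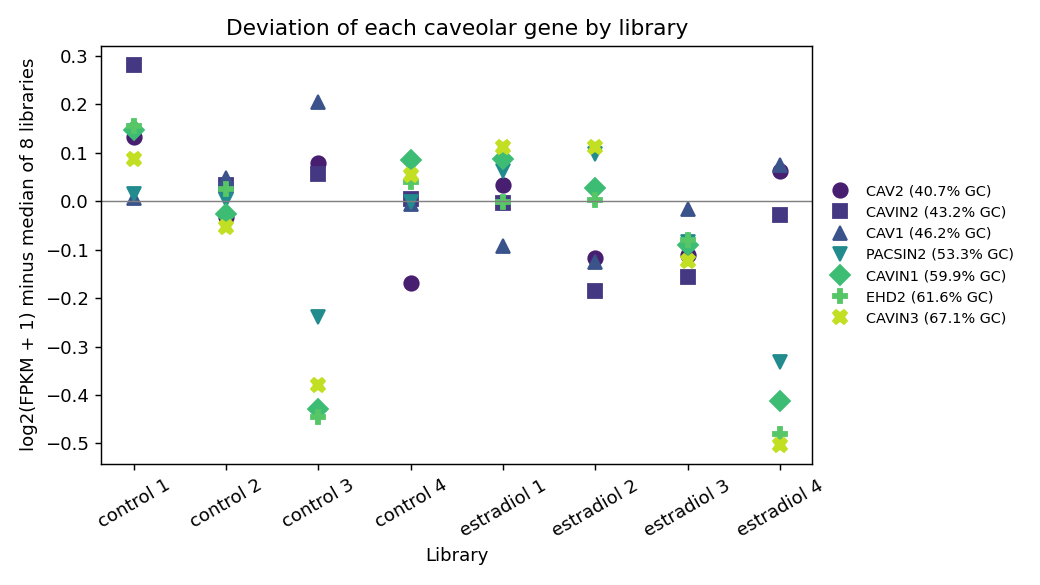
Deviation of each caveolar gene from its median over the 8 libraries, on the log2(FPKM + 1) scale, by library, with symbols coloured by the GC content of the longest reference transcript (yellow is high). In control replicate 3 and estradiol replicate 4 the 4 genes above 53% GC lie between -0.24 and -0.50, and CAV1 lies above 0.

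GC content of the transcript moved with this pattern. The longest GENCODE 29 transcript holds 59.9% GC for CAVIN1, 61.6% for EHD2, 67.1% for CAVIN3 and 53.3% for PACSIN2, against 40.7% for CAV2, 43.2% for CAVIN2 and 46.2% for CAV1. Among all genes tested the median shift of the pair was -0.44 for the 1431 genes above 60% GC and 0.24 for the 2333 genes between 40% and 45%. CAV1 was above the median of its class (45% to 50% GC, -0.04), and CAV2 and CAVIN2 were below that of theirs. After the GC trend of each library was removed, the SD over 8 libraries on the log2 scale went from 0.22 to 0.03 for CAVIN1, from 0.23 to 0.05 for EHD2, from 0.24 to 0.09 for CAVIN3 and from 0.15 to 0.05 for PACSIN2. The median SD of all genes went from 0.18 to 0.08. For CAV1 it was 0.10 before and after, while for CAV2 it went from 0.11 to 0.13 and for CAVIN2 from 0.14 to 0.17. With the trend removed the limma log2 fold changes were -0.11 ± 0.06 for CAV1 and -0.20 ± 0.09 for CAVIN2 (SE), with 0 genes passing the adjusted threshold.

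**Figure D4:**
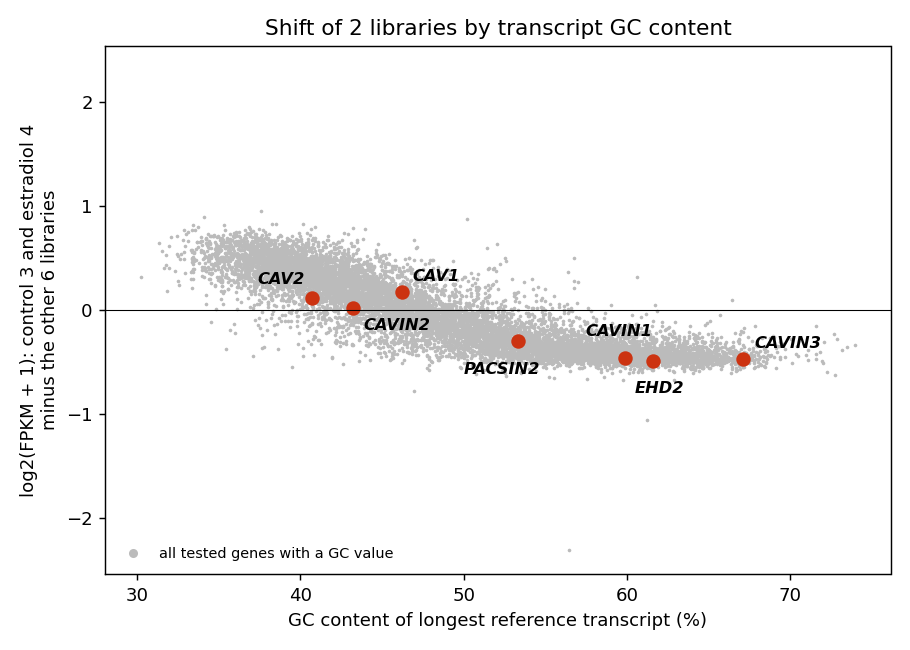
Mean log2(FPKM + 1) of control replicate 3 and estradiol replicate 4 minus that of the other 6 libraries, against the GC content of the longest reference transcript, for all tested genes with a GC value (grey) and the 7 caveolar genes (red). CAVIN1, CAVIN3 and EHD2 lie near -0.5 at 60% GC and above, within the grey cloud, and CAV1 lies at 0.17.

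Ratios within a library leave out its overall scale. EHD2 over CAVIN1 was 0.428 ± 0.0126 with palmitic acid alone and 0.415 ± 0.0130 with estradiol added (SD, n = 4 each), a coefficient of variation over the 8 libraries of 3.26%, although each gene alone varied by 15.4% and 14.7%. CAVIN3 stood at 1.19 ± 0.0398 and 1.20 ± 0.0626 of CAVIN1 (coefficient of variation 4.10%). CAV1 was 3.61 ± 0.32 times CAV2 (control) and 3.44 ± 0.220 times (estradiol; 7.66%). CAVIN1 over CAV1 varied more than either gene, at 1.20 ± 0.267 and 1.247 ± 0.249 (19.7%): it was 0.819 in control replicate 3 and 0.907 in estradiol replicate 4, and from 1.21 to 1.45 in the other 6. The ratio of CAVIN1 to CAV1 thus differed by library, but this did not hold for every cavin. CAVIN2 over CAV1 was 0.0981 in control replicate 3 and 0.1009 in estradiol replicate 4, within the 0.0975 to 0.1335 of the other 6. EHD2, which is not a cavin, stood at 0.3455 and 0.3693 of CAV1 in that pair, and from 0.522 to 0.607 in the other 6. The ratios among CAVIN1, CAVIN3 and EHD2, all near or above 60% GC, varied least of those given here. The part of GC content in these ratios was not tested.

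**Figure D5:**
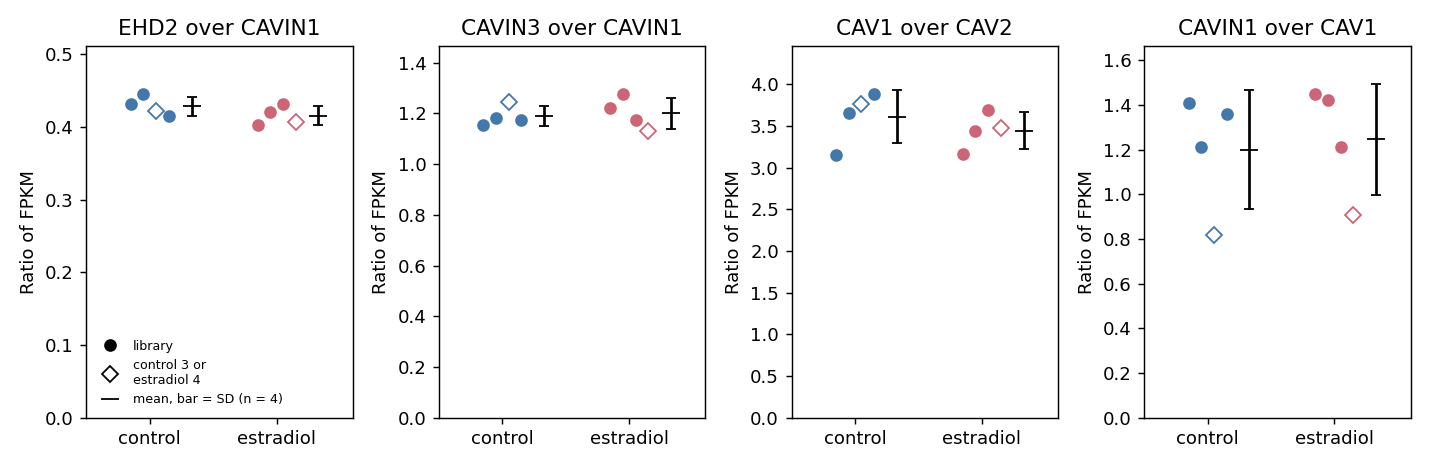
Ratios of FPKM between caveolar genes within each library, control in blue and estradiol in red, with mean and SD (n = 4) in black; open diamonds are control replicate 3 and estradiol replicate 4. EHD2 over CAVIN1 and CAVIN3 over CAVIN1 stay within narrow ranges, while CAVIN1 over CAV1 is below 1 in the pair of open diamonds.

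The genes most like CAV1 were sought by the root mean square difference of centred log2(FPKM + 1) profiles over the 8 libraries, among 4954 other genes with a mean of at least 10 FPKM. They were CD44, a hyaluronan receptor (difference 0.033), UGDH, which makes UDP-glucuronate for glycosaminoglycans (0.037), and SRGN, the proteoglycan serglycin (0.037). By the same measure CAV2 ranked 788, CAVIN2 1399 and CAVIN1 4157, so the profile of CAV1 over these libraries was closer to many other genes than to its partners. For EHD2, CAVIN1 ranked 108. All these profiles come from the same 8 libraries, 2 of which stood apart from the rest, and the GC trend was left in them. The longest transcripts of CD44, UGDH and SRGN hold 45.3%, 40.8% and 38.1% GC. With the GC trend removed, the mean of the pair that stood apart minus that of the other 6 was 0.15 for CAV1. It was 0.06 for CD44, -0.18 for UGDH and -0.29 for SRGN.

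Genes around the caveolar machinery were read from 3 lists of membrane dynamics, caveolar cargo and partners, and other coats and rafts, of which 54 of 65 genes could be tested. None passed in either direction (0 higher and 0 lower in each list; 0 at an unadjusted limma p under 0.05). Of 20 genes of membrane dynamics 18 were tested, 8 with a value above 0 and 10 below (median log2 fold change -0.0093). The smallest p were those of MARCKS, a membrane-bound actin regulator, at 69.6 ± 14.9 and 60.8 ± 7.47 FPKM, SNAP23, a vesicle fusion protein, at 49.6 ± 5.54 and 53.4 ± 4.97, and PIP5K1C, a lipid kinase, at 10.01 ± 2.13 and 9.03 ± 1.23 (control, then estradiol; SD, n = 4 each). DNM2, the dynamin that cuts endocytic necks, had a mean of 44.0 FPKM and FLNA, an actin crosslinker that binds caveolin-1, 184 FPKM.

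Of 27 cargo and partner genes 18 were tested, 16 with a value below 0 (median log2 fold change -0.04), against 50.5% of all genes tested. These signs come from the same 8 libraries and are not independent of each other. How they move with a library left out was not tested. EDNRB, an endothelin receptor, measured 3.94 ± 0.322 and 3.43 ± 0.465 FPKM, CD59, a lipid-anchored complement inhibitor, 72.1 ± 2.63 and 68.2 ± 1.65, and ACVRL1, a BMP receptor that also carries LDL across endothelium, 21.8 ± 3.20 and 19.8 ± 3.20 (control, then estradiol; SD, n = 4 each). The groups overlapped for each of the 3. PLVAP, which forms the diaphragm of endothelial caveolae, had a mean of only 1.247 FPKM, and CD36, a fatty acid carrier of caveolae, 0.00275 FPKM. NOS3, the synthase that caveolin-1 binds, stood at a mean of 8.87 FPKM. All 18 genes of other coats and rafts were tested, 7 above 0 and 11 below (median -0.01). Here AP2S1, a clathrin adaptor subunit, measured 106 ± 11.98 and 99.1 ± 14.9 FPKM, STOM, a raft scaffold, 72.4 ± 3.39 and 69.97 ± 4.34, and FLOT2, a flotillin, 16.1 ± 2.11 and 15.4 ± 2.49 (control, then estradiol; SD, n = 4 each).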

How the data were processed

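RNA of 8 TeloHAEC libraries was sequenced. Per the submitters' processing notes fastp 0.20.1 and HTSeq were used; no aligner, build, annotation or strand setting is named there. The authors deposited FPKM values per gene and library, replicates unpooled. Groups and replicate numbers come from the titles. Each gene was fitted on log2(FPKM + 1) by limma 3.58.1 (R 4.3.3, two-sided, trended variance), for the 10720 genes whose mean reached 1 FPKM, with Benjamini-Hochberg adjustment over all of them and a threshold of 0.05. The pseudocount of 1 shrinks fold changes of low genes. Whole reads were recovered from the FPKM steps for 100.0% of values above 0 (relative tolerance 1e-06) and served for depth and limma-voom. GC content came from GENCODE 29 transcripts (98.2% of tested genes) and its trend was removed by lowess with a span of 0.3. Python 3.11.15 did the rest. The limma step was tested on simulated data with independent noise, for the recovery of planted fold changes. That noise lacks the shared shift of 2 libraries seen here, so it does not show how the calls behave on these data. Named were all members and paralogs, the 3 genes of smallest p in each pathway list and the 3 most like CAV1; other genes named with a mean level (DNM2, FLNA, PLVAP, CD36, NOS3, CDH5) and the ranks around EHD2 and CAVIN2 were chosen after their values were seen. The members, lists and alternatives were chosen with earlier results of these data known.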

Additional observations from a re-analysis of the deposited data

Results flagged for a closer look

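Among 24 named genes, 6 of 48 groups of 4 libraries had 1 library far from the other 3. The chance rate is about 1 in 20 for independent groups. These genes were measured in the same 8 libraries, 2 of which stood apart, so the count cannot be set against that rate. For PACSIN2 it was control replicate 3 (21.4 FPKM, the other 3 controls within 25.3 to 25.7), and for CAVIN2 it was control replicate 1 (14.0 FPKM), whose gap only just reached the limit. Of the other genes, EHD3 (0.408 FPKM), FLOT2 (13.0 FPKM) and CD44 (112 FPKM) were set apart in control replicate 3, low for the first 2 and high for CD44. AP2S1 (76.9 FPKM) was low in estradiol replicate 4. Of these 6 cases 5 fell in control replicate 3 or estradiol replicate 4, and the part of GC content was not tested for them.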

How the results depend on the processing

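All 21 alternatives called 0 genes, with 4 to 437 genes at an unadjusted p under 0.05, and no caveolar gene passed under any (lowest adjusted p 0.791); no gene of the pathway lists passed without the filter or at a mean FPKM of at least 5. CAV1 and CAVIN2 were below 0 in 21 of 21 alternatives, with log2 fold changes from -0.142 to -0.0562 and from -0.222 to -0.125. The other 5 changed direction. Not all alternatives could move a sign. Those that change only the filter, variance trend, replicate block, batch term or permutation test return the main log2 fold change (-0.103 for CAV1, -0.187 for CAVIN2). With 1 library left out, the log2 fold change ranged from -0.0929 to 0.00745 for CAV2, from -0.165 to 0.0645 for CAVIN1, from -0.13 to 0.106 for CAVIN3, from -0.213 to 0.0297 for EHD2 and from -0.0695 to 0.0802 for PACSIN2. Once control replicate 3 and estradiol replicate 4 were both left out, CAVIN3 was at 0.00417 and PACSIN2 at 0.0194. With the GC trend removed CAVIN3 was at 0.0162, and in the pair alone CAVIN1 was at 0.0164. The cause was not tested. With the replicate block 0 genes were called, and 11 had an unadjusted p under 0.05. The labels do not say that the numbers pair the samples, and deviations of same-numbered libraries correlated at 0.616, 0.073, -0.478 and -0.737 across genes, so the numbers were not used as pairs. Counting error of the members was at most 3.15%; the effect of depth on the calls was not tested.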

Other observations

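By the profile over the 8 libraries, the member nearest to CAVIN2 was CAV2, which ranked 17 of 4954 genes by the root mean square difference (0.0944 on the log2 scale) and CAV1 ranked 168. The genes nearest to CAVIN2 were HOXB7, SRSF8 and THBD, and THBD encodes thrombomodulin, an endothelial anticoagulant receptor. The genes nearest to CAVIN1 were RRBP1, SRRT and MYH9, at differences from 0.0133 to 0.0202. These ranks are a description of 8 libraries, 2 of which stood apart from the rest, with the GC trend left in.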
